A study of Mus musculus with 13 samples.

Results

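The genes described here encode the cytokines and chemokines of acute inflammation that a microglial or astroglial response to injury can release: Tnf, Il1a, Il1b, Il6, Tgfb1, Ccl2, Ccl3, Ccl4 and Ccl12, together with Tnfrsf1a, the receptor through which soluble TNF acts on most cells. These 10 genes were chosen by name, and all 10 were found among the 55291 gene symbols counted. Of the 10, 5 had a mean normalized count of at least 150 over all libraries (Ccl2, Ccl3, Ccl4, Ccl12 and Tnfrsf1a), as did 11872 symbols in all. Normalized counts are counts scaled to the mean effective library size.

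RNA was sequenced from 13 CA1 regions of entorhino-hippocampal tissue cultures, each region from a single culture. The 5 control cultures were not lesioned, 4 cultures had a Schaffer collateral lesion (SCL), which cuts the axons from CA3 to CA1, and 4 had an entorhinal cortex lesion (ECL), which cuts the perforant path from the entorhinal cortex. Tissue was taken 3 days after the lesion, without the scar. The labels give wildtype mice of the strain C57BL/6 for every library. Their cultures were prepared at postnatal day 4 to 5 from animals of either sex and kept for at least 18 days in vitro. Such a culture keeps its resident microglia, astrocytes and neurons but has no blood supply, so circulating leukocytes cannot enter it.

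Total counts ranged from 14371152 to 21092612 in controls, from 16405517 to 56786613 in SCL libraries and from 20210165 to 46449937 in ECL libraries. The titles name CA1, while the protocol text of the labels names the dentate gyrus. Markers of CA1 pyramidal cells summed to 11609 normalized counts in controls, 10736 after SCL and 12103 after ECL. CA3 markers summed to 5228, 4500 and 4517 in the same order. Dentate granule markers summed to 4734, 3409.5 and 3893. Most of the control sum came from Calb1, at a mean of 2823, and Stxbp6, at 1384. The granule cell gene C1ql2 was at a mean of 10.7 and Lct at 5.12 in controls but Prox1 at 420.2. Since the lists hold different genes, their sums do not measure the share of each subfield in the tissue. The summed level of 11 blood leukocyte markers ranged from 35.4 to 208.8 in controls, from 37.4 to 68.8 in SCL libraries and from 44.3 to 77.9 in ECL libraries. No marker of that list had a mean of 150 or more, and S100a9 was at 0 in every ECL library.

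TNF and interleukin-1 are made early by activated microglia and act through receptors that switch on NF-kB. That factor in turn drives transcription of interleukin-6 and of chemokines, which attract microglia and leukocytes along gradients. TGF-beta is secreted in a latent form and restrains microglia. In the hippocampus, TNF is also known as a glial signal that scales excitatory synapses when input is lost, and interleukin-1 and interleukin-6 alter long-term potentiation.

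The members spanned several orders of magnitude in level. In normalized counts per kb of exon, the control mean was highest for Ccl12, at 9224 ± 3076 (SD, n = 5), and the range of Ccl12 did not overlap with that of the next gene, Ccl3. Ccl3 followed at 709 ± 233, Ccl2 at 609.8 ± 263, Ccl4 at 425 ± 263 and Tnfrsf1a at 209.6 ± 74.9 normalized counts per kb, and each of these neighbours overlapped with the next. A gap separated Tnfrsf1a, whose lowest control library stood at 109 per kb, from Il1b, whose highest stood at 49.1. Below it were Il1b at 26.6 ± 16.5, Tnf at 25.6 ± 27.5, Il6 at 8.86 ± 7.51, Il1a at 7.26 ± 5.23 and Tgfb1 at 5.28 ± 4.00 normalized counts per kb, again with overlap between neighbours. After both lesions Ccl12 again stood alone at the top. Ccl4 came after Ccl3 and Ccl2 in controls but directly after Ccl12 in the SCL group, at 685 ± 309 per kb (n = 4), and in the ECL group, at 1283 ± 836 per kb (n = 4), in both cases overlapping with the gene below it.

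**Figure D1:**
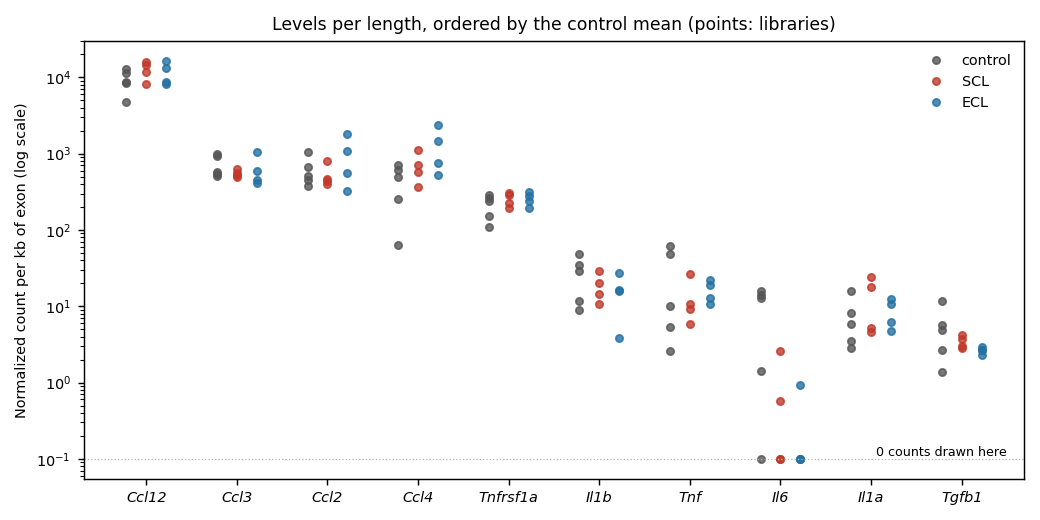
Normalized counts per kb of exon on a log scale for the 10 genes, ordered by the control mean, with 1 point per library and a dotted line on which libraries with 0 counts are drawn. The chemokines and Tnfrsf1a lie above 60 per kb in every library, and the cytokine genes Tnf, Il1a, Il1b, Il6 and Tgfb1 lie below 62 per kb.

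Across the 3 comparisons, a single member passed the test when genes of low mean were left out. Ccl4 was higher after ECL than in controls, and no member differed from controls after SCL or between the lesions. For all 10 genes the range of libraries overlapped between groups in every comparison. Among all genes with a mean of at least 150, 24.6% of 11733 were called after SCL and 27.6% of 11392 after ECL (edgeR's quasi-likelihood test, adjusted p under 0.05), and ranges were separate for 23.3% after SCL, 24.9% after ECL and 3.85% between the lesions. With a mean minimum of 10 these shares of separate ranges were 17.6%, 21.4% and 4.02%. The comparisons of SCL and ECL share the 5 controls, so that a control library that is high or low moves both. Since whole tissue was sequenced, fewer cells of a type and less RNA per cell cannot be told apart.

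Tnf encodes the cytokine TNF and lies at chr17:35199381-35202007 on the minus strand of GRCm38. Its raw counts were low, between 3 and 58 per library. Normalized counts in controls were 8.64, 16.3, 101.2, 4.23 and 79.8. They were 9.59, 17.8, 15.2 and 42.8 after SCL and 21.0, 31.4, 17.3 and 35.9 after ECL. Control 3 and control 5 held more than any lesioned library, and the other 3 controls held less than any ECL library. In the fit of genes with a mean of at least 10, the log2 fold change was −0.92 (95% interval −2.70 to 0.86) after SCL and −0.58 (−2.19 to 1.03) after ECL, with edgeR adjusted p = 0.468 and 0.632. As folds, these intervals reached from 0.154 to 1.81 and from 0.219 to 2.04.

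Il1a and Il1b encode the agonists of the interleukin-1 receptor and are neighbours on chromosome 2, 54.6 kb apart. The normalized counts of Il1a (chr2:129299610-129309972) were 11.5, 16.3, 6.98, 5.64 and 31.2 in controls. They were 35.5, 48.4, 10.3 and 9.17 after SCL and 9.32, 21.3, 12.4 and 24.7 after ECL. SCL 1 and SCL 2 exceeded every control, SCL 3 and SCL 4 lay within the control range, and all ECL libraries lay within it. The log2 fold change of Il1a was 0.94 (−0.58 to 2.46) after SCL and 0.29 (−1.10 to 1.69) after ECL, with edgeR adjusted p = 0.379 and 0.788. Of its exon bases, 11.2% are shared with the gene Gm14023 on the other strand, whose reads cannot be told from its own in counts made without strand.

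Il1b (chr2:129364570-129371139) held normalized counts of 17.3, 65.3, 22.7, 55.0 and 93.7 in controls. After SCL they were 27.8, 38.2, 20.7 and 55.0, and after ECL 30.3, 31.4, 7.42 and 52.8. The values of all SCL libraries and of 3 ECL libraries lay inside the control range, and ECL 3 lay below it. Its log2 fold change was −0.46 (−1.62 to 0.70) after SCL and −0.66 (−1.93 to 0.61) after ECL, with edgeR adjusted p = 0.588 and 0.467. An antisense gene, Il1bos, overlaps 1.31% of its exon bases.

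Il6 encodes interleukin-6 (chr5:30013114-30019981, plus strand) and was the member with the fewest counts after a lesion. Raw counts in controls were 24, 0, 18, 27 and 2. After SCL they were 0, 14, 2 and 0, and after ECL 0, 2, 0 and 0. Controls 1, 3 and 4 thus held the signal, at 31.4 to 38.1 normalized counts, while control 2 with 0 and control 5 with 3.47 normalized counts lay in the range of the lesioned libraries. A count of 0 allows up to 3 counts if counts are independent, and this limit covers counting error only. After SCL the log2 fold change was −3.06 (−5.59 to −0.52), the unadjusted p was 0.0216 and the edgeR adjusted p 0.0892, so the difference did not pass. The gene reached the mean minimum of 10 in that fit only through the controls. It passed in 3 of 13 alternatives, with adjusted p between 0.0384 and 0.199, and one of the 3 left out control 2 (edgeR adjusted p = 0.0418). No value could be had without control 1, control 3, control 4 or SCL 2, or in the fit of all 13 libraries, since the gene then fell under the mean minimum of 10, so the 13 alternatives do not test the 3 controls that held the signal. After ECL the gene was under the mean minimum of 10. Summed over the libraries it held 2 counts against 71 in controls, a ratio of 0.0220 relative to total counts with an exact 95% counting interval of 0.00261 to 0.0824, which does not include the spread between the control libraries. The interval takes counts as independent, while both mates of a fragment were probably counted, so it is probably too narrow for counting error as well.

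The promoter of Il6 is shown because it alone, among the 8 members whose promoter could be searched, held a match to the kB consensus bound by NF-kB. The 250 bases before its start, chr5:30012864-30013113 on the plus strand of GRCm38.p6 (RefSeq), have this match in capitals.
Il6: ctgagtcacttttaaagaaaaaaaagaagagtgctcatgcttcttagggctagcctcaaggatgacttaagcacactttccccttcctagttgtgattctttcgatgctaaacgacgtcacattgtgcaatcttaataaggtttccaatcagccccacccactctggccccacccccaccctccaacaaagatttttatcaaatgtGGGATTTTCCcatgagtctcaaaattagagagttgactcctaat
The match GGGATTTTCC starts 44 bases before the start. RefSeq promoters were at hand for 8 of the 10 members (Tnf, Il1a, Il1b, Il6, Tgfb1, Ccl3, Ccl12 and Tnfrsf1a). For Tnfrsf1a the RefSeq start lay 361 bases from the GENCODE start, inside the GENCODE gene. On either strand, 1 of these 8 held the kB consensus GGGRNWYYCC, as did 3.90% of 32851 promoters of that length, and 2 of the 8 (Il1a and Il6) held the AP-1 letters TGANTCA, as did 6.75%. A match is a description of letters and not a site of binding.

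Tgfb1 encodes TGF-beta 1 and lies at chr7:25687002-25705077 on the plus strand. Its normalized counts were 28.8, 13.6, 24.4, 59.2 and 6.94 in controls. They were 15.3, 18.6, 14.5 and 21.4 after SCL and 11.7, 13.4, 14.8 and 13.5 after ECL. The lesioned libraries lay close together inside a wide control range, with an SD of 3.18 after SCL and 1.30 after ECL against 20.2 in controls. The log2 fold change was −0.50 (−1.82 to 0.82) after SCL and −0.89 (−2.22 to 0.44) after ECL, with edgeR adjusted p = 0.606 and 0.338.

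The 4 chemokine genes lie in 2 clusters on chromosome 11. Ccl2 (chr11:82035571-82037453) and Ccl12 (chr11:82101845-82103400), whose products bind the receptor Ccr2, stand in the first with Ccl7, Ccl11 and Ccl8 between and beside them. Ccl3 (chr11:83647844-83649355) and Ccl4 (chr11:83662584-83664683) stand 13.2 kb apart in the second, on opposite strands. Although the members of each cluster are related in sequence, every stretch of 50 bases in their transcripts was found in no other annotated transcript.

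Ccl12 was the most abundant member. Its normalized counts were 6132, 6854, 4546, 2574 and 4659 in controls. They were 8541, 7901, 4363 and 6308 after SCL and 4432, 8892, 4599.96 and 7198 after ECL. In each lesion group 2 libraries exceeded every control and 2 lay within the control range. The mean was 4953 ± 1652 (SD, n = 5) in controls, 6778 ± 1864 after SCL (n = 4) and 6281 ± 2153 after ECL (n = 4), a fold of 1.37 (0.927 to 2.02) and 1.27 (0.860 to 1.89), with edgeR adjusted p = 0.218 and 0.347. Its promoter, shown as that of the member with the highest level, lies at chr11:82101595-82101844 on the plus strand of GRCm38.p6 (RefSeq), holds neither motif and is therefore printed without capitals.
Ccl12: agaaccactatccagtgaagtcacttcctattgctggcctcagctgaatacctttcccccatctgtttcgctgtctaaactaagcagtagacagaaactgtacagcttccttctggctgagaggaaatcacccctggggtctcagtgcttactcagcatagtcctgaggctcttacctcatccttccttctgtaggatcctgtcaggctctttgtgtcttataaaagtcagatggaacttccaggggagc

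Ccl2 encodes the monocyte chemoattractant. Its normalized counts were 1187, 751, 583, 434 and 515 in controls. They were 535, 899, 450.4 and 501 after SCL and 634, 2039.6, 366 and 1251 after ECL. ECL 2 and ECL 4 stood above every control and ECL 3 below every control, while all SCL libraries lay within the control range. The fold was 0.859 (0.555 to 1.33) after SCL and 1.55 (0.850 to 2.83) after ECL, with edgeR adjusted p = 0.617 and 0.262.

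Ccl3 encodes macrophage inflammatory protein 1-alpha. Its normalized counts were 720.02, 445, 387, 409 and 753 in controls. They were 482, 403, 424 and 384 after SCL and 343, 809, 315 and 459 after ECL. The SCL libraries had the narrowest spread of any group of this gene, with an SD of 42.7 against 178 in controls and 227 after ECL. ECL 1, ECL 3 and, by a small margin, SCL 4 lay below every control, and ECL 2 lay above. The log2 fold change was −0.36 (−0.85 to 0.14) after SCL and −0.17 (−0.81 to 0.48) after ECL, with edgeR adjusted p = 0.270 and 0.720.

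Ccl4 encodes macrophage inflammatory protein 1-beta and was the member that rose after ECL. Its normalized counts in controls were 462, 405, 325, 42.3 and 167, from raw counts between 30 and 321. After ECL they were 351, 1573, 492 and 970.1, and after SCL 243, 377, 727 and 462. ECL 2, ECL 3 and ECL 4 exceeded every control and ECL 1 lay within the control range, so that the groups overlapped. After SCL only SCL 3 stood above all controls. The mean was 280.2 ± 173 in controls (SD, n = 5), 846 ± 552 after ECL (n = 4) and 452 ± 204 after SCL (n = 4). The fold after ECL was 3.03 (1.38 to 6.66; log2 fold change 1.60, SE 0.53) with an edgeR adjusted p of 0.0377, and 15.1% of all genes tested were called higher. The fold after SCL was 1.61 (0.755 to 3.41), with an edgeR adjusted p of 0.340.

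The call on Ccl4 rests on few libraries. In edgeR fits with 1 library left out, it was lost without control 3 (log2 fold change 1.65, edgeR adjusted p = 0.0517) and without control 5 (1.46, edgeR adjusted p = 0.0901). It was also lost without ECL 2 (1.12, edgeR adjusted p = 0.162) and without ECL 4 (1.53, edgeR adjusted p = 0.0801). DESeq2 gave a log2 fold change of 1.60 with an adjusted p of 0.0668. Sex, as entered in the column headings, moves with the groups: 2 of 5 controls and 3 of 4 ECL libraries were male. Among males, Ccl4 was at 405 and 462 in controls and at 492 to 1573 after ECL. Among females it was between 42.3 and 325 in 3 controls and at 351 in the single ECL library. With sex as a term the log2 fold change was 1.14 and the call was lost (edgeR adjusted p = 0.0901).

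Tnfrsf1a encodes TNF receptor 1 and lies at chr6:125349362-125362484 on the plus strand. Its normalized counts were 624, 737, 675, 284 and 396 in controls. They were 498, 742, 588 and 779.7 after SCL and 498, 629, 821 and 715 after ECL. SCL 2, SCL 4 and ECL 3 exceeded every control. Control 4 was the lowest control, as it was for Tnf, Il1a, Ccl2, Ccl4 and Ccl12. The fold was 1.20 (0.802 to 1.78) after SCL and 1.23 (0.831 to 1.82) after ECL, with edgeR adjusted p = 0.506 and 0.424.

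**Figure D2:**
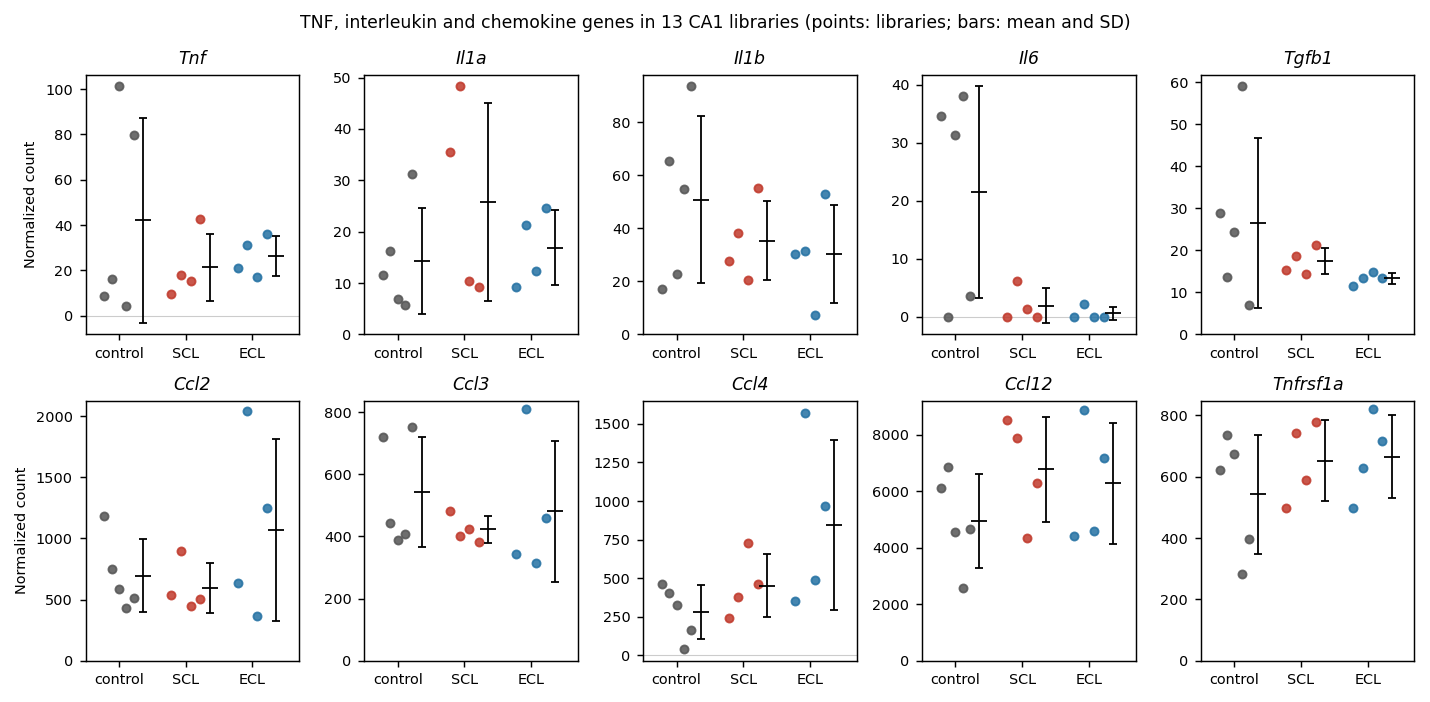
Normalized counts of the 10 genes in every library, 1 panel per gene, with points for libraries and bars for the mean and SD (control n = 5, SCL n = 4, ECL n = 4). The groups overlap in every panel, Il6 is near 0 in all lesioned libraries and in 2 of 5 controls, and 3 of 4 ECL libraries exceed all controls for Ccl4.

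With a mean minimum of 150, 0 of 5 members were called after SCL by edgeR and by DESeq2, and 0 had an unadjusted p under 0.05. Their median log2 fold change was 0.26, against 0.01 over all genes tested. With a mean minimum of 10, 0 of 10 were called, where 16.3% of 22150 genes were, and 1 (Il6) had an unadjusted p under 0.05. After ECL, 1 of 5 members was called by edgeR and 0 by DESeq2, with a median log2 fold change of 0.35 against −0.01 over all genes. With a mean minimum of 10, the count was 1 of 9 (Ccl4, edgeR adjusted p = 0.0305), where 22.7% of 21283 genes were called. Without any minimum, Ccl4, Ccl12 and Il6 were called after SCL and Ccl2, Ccl4, Ccl12 and Il6 after ECL. In that fit 11.2% and 16.8% of all symbols were called, and between the lesions, where 0.491% were, Ccl2 and Ccl4 were called.

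The lesions themselves were compared directly. With a mean minimum of 150, neither edgeR nor DESeq2 called any of the 5 members, and 0 had an unadjusted p under 0.05. edgeR also called 0 of 12478 genes (0%) in that comparison, of which 918 had an unadjusted p under 0.05. The largest difference was that of Ccl4, with a log2 fold change of 0.91 for ECL over SCL (−0.06 to 1.89, edgeR adjusted p = 0.702). Ccl2 followed at 0.85 (−0.11 to 1.82, edgeR adjusted p = 0.712). The others were smaller, at 0.20 for Ccl3, −0.10 for Ccl12 and 0.04 for Tnfrsf1a. Sex moved with the groups here too: by the column headings, 3 of 4 ECL libraries and 1 of 4 SCL libraries were male. In the alternatives that kept every library, the log2 fold change of Ccl4 ran from 0.38 to 0.93. A difference between the lesions in Ccl4 is therefore not shown with these minimums, and its interval does not show that they were alike.

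**Figure D3:**
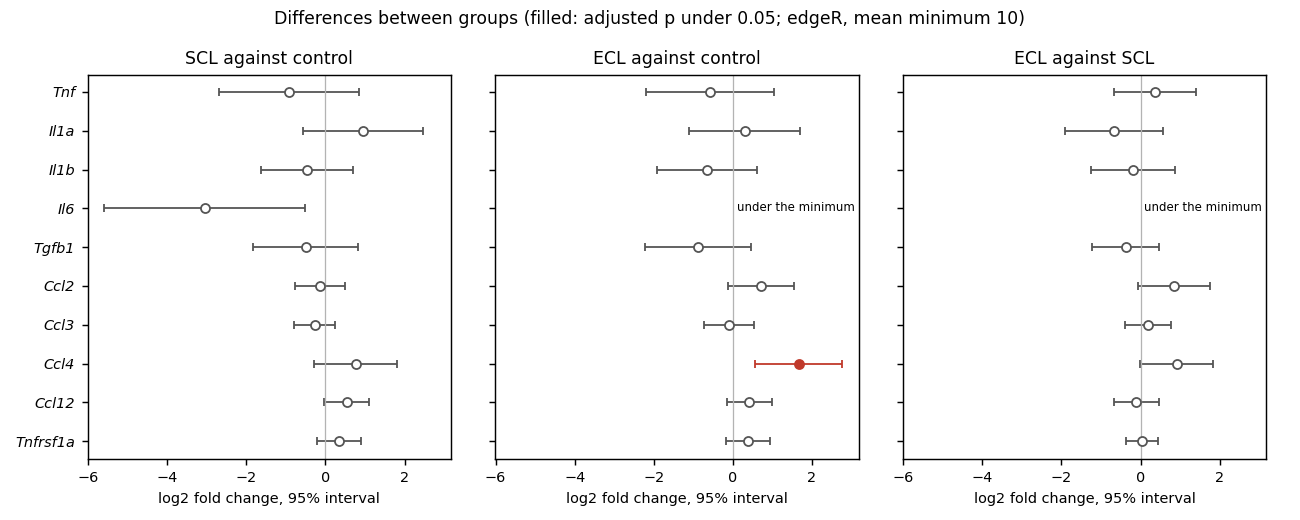
Log2 fold changes of the 10 genes with 95% intervals in the 3 comparisons, from edgeR fits of all genes with a mean of at least 10, which Il6 did not reach in ECL against control and ECL against SCL, where it has no value. The single filled symbol is Ccl4 after ECL, at 1.66, and the widest interval is that of Il6 after SCL, from −5.59 to −0.52.

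Most markers of microglia, a main source of these factors, were higher after both lesions. The summed normalized count of 13 microglia core genes (among them Aif1, Csf1r, Tyrobp and C1qa) was 31268 ± 1956 in controls (28312 to 33772, n = 5), 66113 ± 20151 after SCL (51448 to 95734, n = 4) and 62538 ± 9219 after ECL (52689 to 73234, n = 4). Of the 13 genes, 11 were called higher after SCL and 9 after ECL, and none was at 0. Over all genes with a mean of at least 150, 24.6% and 27.6% were called in either direction. Laptm5 and Ptprc were not called after SCL (log2 fold changes 0.29 and −0.12). After ECL 4 of the 13 were not called, and the lowest log2 fold change was −0.58. The list of 9 homeostatic microglia genes, of which 8 were called higher after SCL and 4 after ECL, summed to 6476, 16527 and 12985. The part of this difference in the values of the members was not tested by the fits above, so the members were also expressed per 1000 counts of the microglia core list. Il6 was left out there, since its mean over all libraries was below 10.

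Relative to the microglia core list, Ccl3 was 21.3, 14.4, 13.7, 12.96 and 23.9 in controls. After SCL it was 7.88, 7.19, 4.43 and 7.47, and after ECL 5.98, 11.05, 5.99 and 6.89. All lesioned libraries lay below all controls, as they did for 61.5% of 11937 genes after SCL and 60.9% after ECL, and with a mean minimum of 10 for 46.4% and 48.7%, so a separation of this kind was the common case. The exact permutation test gave p = 0.00794 for each lesion, the smallest that 5 against 4 libraries allow, and adjusted p = 0.107 over the 27 tests of the family. The mean was 17.2 ± 4.99 in controls, 6.74 ± 1.57 after SCL and 7.48 ± 2.42 after ECL.

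No other member separated the groups on this scale. All 9 members had a negative log2 difference after SCL, with a median of −1.22, and 8 of 9 did after ECL, with a median of −0.64. The medians over all genes with a mean of at least 10 were −1.08 and −1.05. Ccl4 was the exception after ECL, at 0.76 on the log2 scale, with 6.12, 21.5, 9.35 and 14.5 per 1000 after ECL and 13.7, 13.1, 11.5, 1.36 and 5.30 in controls (exact permutation p = 0.437, adjusted p = 0.589). In these exact permutation tests 0 of the 27 differences passed after adjustment. Unadjusted p was under 0.05 for 2 after SCL (Ccl2 and Ccl3) and 3 after ECL (Il1b, Tgfb1 and Ccl3). The smallest p these tests allow is 0.00794 against controls and 0.0286 between the lesions. Even Ccl3, at the smallest p after both lesions, had an adjusted p of 0.107, so the count of 0 was largely set by the design.

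**Figure D4:**
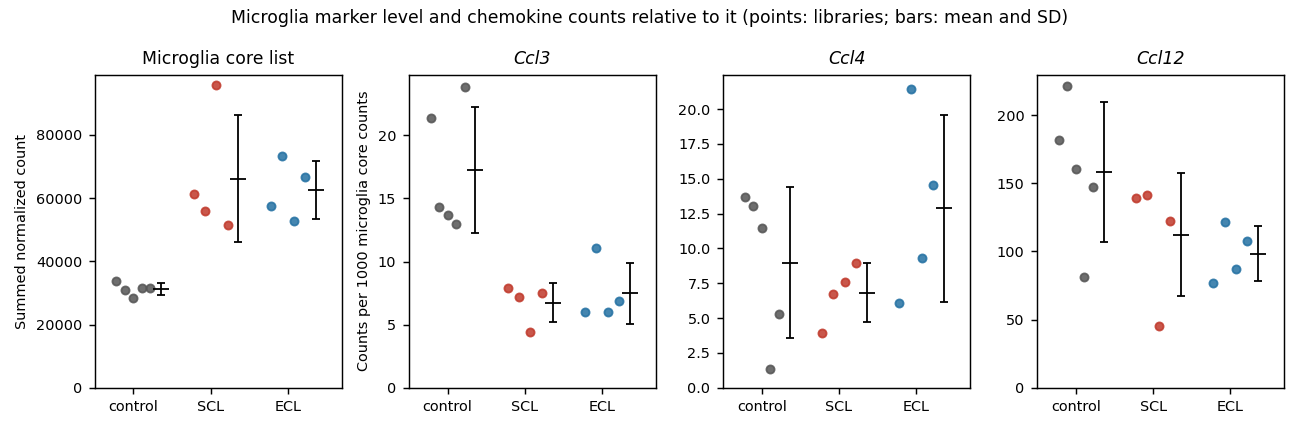
Summed normalized count of 13 microglia core genes (left) and counts of Ccl3, Ccl4 and Ccl12 per 1000 counts of that list, with points for libraries and bars for the mean and SD. The microglia sum is at least 51448 in every lesioned library and at most 33772 in every control, and Ccl3 per 1000 is at most 11.05 after a lesion and at least 12.96 in controls.

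The other genes of the pathways were counted against the shares of 24.6% after SCL and 27.6% after ECL called over all genes with a mean of at least 150, and nothing particular to a list is read from its count. Of 30 genes of TNF signalling other than the members, 19 were tested after SCL, of which 1 was higher, 0 lower and 18 not called, with a median log2 fold change of −0.14. Casp8, the initiator caspase recruited by death receptors, rose with a log2 fold change of 0.73 (edgeR adjusted p = 0.0162), from 285 ± 48.5 to 471 ± 41.5 normalized counts. After ECL, 1 was higher and 3 were lower, with a median of −0.30. Tnfaip3, which encodes the NF-kB-limiting enzyme A20, fell by 0.90 on the log2 scale (edgeR adjusted p = 0.0142). Birc2, a ubiquitin ligase of the receptor complex, fell by 0.68 (edgeR adjusted p = 0.0118). Nfkbib, an inhibitor that holds NF-kB in the cytoplasm, rose with a log2 fold change of 0.75 (edgeR adjusted p = 0.0189). The remaining call after ECL, named here after its value was seen, was Map3k7, at −0.39 (edgeR adjusted p = 0.0444), and it was lost in the fit with a mean minimum of 10 (edgeR adjusted p = 0.128).

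Of 30 interleukin signalling genes, 19 were tested after each lesion. After SCL 1 was higher and 0 were lower, where 24.6% of all genes were called, with a median log2 fold change of 0.09. This gene was Pycard, the adaptor of the inflammasome that matures interleukin-1, which rose from 408 ± 73.4 to 956 ± 148 normalized counts (log2 fold change 1.23, edgeR adjusted p = 0.00152). After ECL 0 were higher and 1 lower, where 27.6% of all genes were called, with a median of −0.06. Irak1, a kinase downstream of the interleukin-1 receptor, fell by 0.48 on the log2 scale (edgeR adjusted p = 0.0178).

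Of 20 TGF-beta signalling genes, 15 were tested after each lesion, and 1 was higher and 2 were lower after each, with a median of −0.09 in both. Over all genes 24.6% were called after SCL and 27.6% after ECL. Itgb5, an integrin subunit that takes part in freeing latent TGF-beta, rose after SCL (log2 fold change 1.23, edgeR adjusted p = 0.00427) and after ECL (1.04, edgeR adjusted p = 0.00514). Skil, a repressor of SMAD signalling that is itself induced by it, fell by 1.63 on the log2 scale after SCL and fell by 2.79 after ECL (edgeR adjusted p = 0.0389 and 0.00131), from a control mean of 25985 ± 21165 normalized counts whose SD is nearly as large as the mean. The groups overlapped after SCL, and that call was lost in the fit with a mean minimum of 10 (edgeR adjusted p = 0.0538). Smad7, the inhibitory SMAD, fell by 0.79 after SCL (edgeR adjusted p = 0.0112), and Smad2, which carries the signal to the nucleus, fell by 0.68 after ECL (edgeR adjusted p = 0.0181).

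Of 42 other chemokine and chemokine receptor genes 15 were tested, and 4 were higher and 0 lower after SCL (median 0.13), while 2 were higher and 1 lower after ECL (median 0.25). Over all genes 24.6% and 27.6% were called. Ccl5, a chemoattractant of T cells and monocytes, rose from 99.5 ± 43.4 normalized counts in controls to 372 ± 199 after SCL and 467 ± 234 after ECL. Its log2 fold changes were 1.90 and 2.23 (edgeR adjusted p = 0.00589 and 0.00131), and the groups did not overlap in either comparison. Cxcl14 rose after both lesions (log2 fold changes 0.54 and 0.67, edgeR adjusted p = 0.0231 and 0.00371). Cx3cr1, the fractalkine receptor of microglia, rose after SCL (0.58, edgeR adjusted p = 0.0283), and Ackr1, a receptor that binds chemokines without signalling, fell by 0.50 after ECL (edgeR adjusted p = 0.0499). The call on Ackr1 was lost in the fit with a mean minimum of 10 (edgeR adjusted p = 0.106), and its groups overlapped. Cx3cr1 also stands in the list of homeostatic microglia genes. Between the lesions, none of the 82 genes tested in the 4 lists was called, where 0 of all 12478 genes tested were (0%).

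**Figure D5:**
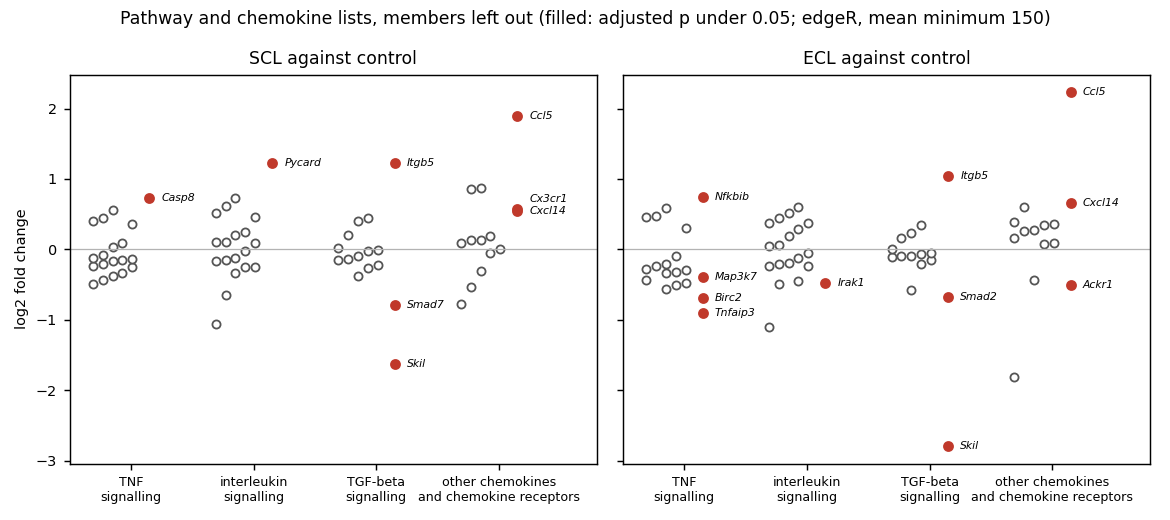
Log2 fold changes of the tested genes of 4 lists that are reported here, the 10 members left out, after SCL (left) and ECL (right), with 1 symbol per gene from the edgeR fits with a mean minimum of 150. Filled and named symbols passed an adjusted p of 0.05, with Ccl5 the highest and Skil the lowest in both panels.

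The members varied among themselves within groups. Taking each library's deviation from its group mean in log2(normalized count + 1) over the 13 libraries, the pairs with the highest Pearson's r were Ccl2 and Ccl12 at 0.77, Ccl4 and Tnfrsf1a at 0.74, Ccl2 and Ccl3 at 0.69, Il1a and Ccl12 at 0.67, Ccl4 and Ccl12 at 0.64, and Ccl2 and Ccl4 at 0.62. Ccl3 and Ccl4, the closest neighbours on the chromosome, stood at 0.44. Tnf and Il1b stood at 0.26. The r of Tgfb1 was below 0 with each of the other 8 members compared, but ran from −0.57 (Il1a) to −0.018 (Ccl2). The raw counts of Tgfb1 were low, between 4 and 42 per library. The points of a pair share their library, its depth and its amplification, and no test was made. The deviations of the microglia core sum had an r between −0.24 (Tnfrsf1a) and 0.46 (Ccl3) with the members.

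By the same measure, over 11867 genes with a mean of at least 150, the genes most like each member were Trim59 (0.88) and Cmbl (0.86) for Ccl2, Ifi209 (0.94) and Malat1 (0.90) for Ccl3, Parp12 (0.95) and Krtcap2 (0.94) for Ccl4, Shc4 (0.83) and Dis3 (0.82) for Ccl12, and Cdc42ep4 (0.98) and Fam57b (0.97) for Tnfrsf1a. The 99th percentile of all candidates lay between 0.61 for Ccl2 and 0.88 for Tnfrsf1a. It was 0.82 for Ccl4, so the r of 0.74 between Ccl4 and Tnfrsf1a lay below it for both genes. For Ccl12 it was 0.62, so the r of 0.77 between Ccl2 and Ccl12 lay above it for both.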

How the data were processed

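Per the labels and the submitters' processing notes, the authors trimmed paired reads with cutadapt 3.5, mapped them with STAR 2.7.8a to mm10 and counted them with featureCounts 2.0.1 on GENCODE M25 genes, without strand. They deposited raw counts per gene symbol. An excess of even low counts (63.0% to 74.3% of those from 1 to 20) shows that both mates of a fragment were probably counted, and halved counts were tried. No molecular identifiers, batches or dates are given. Sex in the column headings matched sex-linked genes in 13 of 13 libraries.

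Separate fits across all genes set SCL and ECL against the 5 controls and against each other, with edgeR 4.0.16 (R 4.3.3), TMM factors over the genes tested and two-sided Benjamini-Hochberg adjusted p under 0.05. The mean normalized count had to reach 150 in the libraries compared, the minimum of the study, and members below it come from a fit with a minimum of 10. The study used DESeq2, an alternative here (1.42.0). Standard errors follow from the quasi-likelihood F. Replicates are separate cultures, and the labels do not say which shared an animal. The code was tested on simulated data. Ratios to microglia core genes used a pseudocount of 0.5 and exact two-sided permutation tests.

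Positions come from GENCODE on GRCm38 and promoters from RefSeq. The members and lists were chosen with earlier results of these data known. Described are all 10 members, up to 3 called genes per pathway list and lesion with the smallest adjusted p, and the 2 genes most like each member with a mean of at least 150. The values of 1 called chemokine list gene are not reported here, although the counts of that list include it. Alternatives were other scalings and minimums, DESeq2, all libraries fitted together, title numbers as a block, a sex term, halved counts, another microglia list or pseudocount, and leaving out each library. A block by the numbers in the column headings was added after seeing the data.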

Additional observations from a re-analysis of the deposited data

Results flagged for a closer look

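Il6 in ECL 2, at 2.24 normalized counts from 2 raw counts, met Dixon's criterion for a library apart from its group, where the other 3 ECL libraries held 0. With the others tied at 0 any count above 0 meets it, and a count of 0 allows up to 3 counts, so these counts do not show that ECL 2 differed. It was the only one of 33 group tests to meet the criterion, and chance gives about 1 in 20. Between the lesions, edgeR called 0 of the 12478 genes tested with a mean minimum of 150.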

How the results depend on the processing

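Among members with a mean of at least 150, leaving out each library in turn gave 0 to 1 called after ECL and 0 after SCL and between the lesions. The count after ECL was 0 with DESeq2, with the replicate block by title number, with a sex term and with the block by heading number, and 4 with no minimum. With no minimum all 10 members were in the fit, and 4 were called after ECL, 3 after SCL and 2 between the lesions. The calls after each lesion then included Il6, which is not among the abundant members and was lower. Libraries with the same number in the titles correlated between −0.14 and 0.40 for ECL, −0.13 and 0.23 for SCL and −0.15 and 0.53 between the lesions. Differently numbered libraries were not set beside them, so whether the numbers mark pairs was not tested. With the title block, Ccl4 after ECL had a log2 fold change of 1.51 (edgeR adjusted p = 0.0927). TMM over all symbols moved the 5 abundant members by a median of 0.19 after SCL and 0.16 after ECL on the log2 scale.

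Directions that turned were those of log2 fold changes whose interval included 0. After SCL, the title block gave 0.14 for Tnf and 0.021 for Il1b. After ECL, it gave 0.72 for Tnf, the sex term gave 0.25 for Tnf, and TMM over all symbols and no minimum both gave 0.0014 for Ccl3. Between the lesions, the sex term gave −0.20 for Tnfrsf1a and −0.0098 for Tnf. With 1 library left out, values ran from −0.48 to 0.061 for Ccl2 after SCL and from −0.90 to 0.016 for Tnf after ECL. Between the lesions they ran from −0.17 to 0.35 for Ccl3, −0.31 to 0.038 for Ccl12, −0.079 to 0.16 for Tnfrsf1a and −0.56 to 0.13 for Il1b. The cause was not tested.

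Per 1000 microglia core counts, the homeostatic list gave 0.20 for Ccl12 between the lesions. With 1 library left out, log2 differences ran from −0.81 to 0.18 for Il1a and −0.65 to 0.19 for Ccl4 after SCL. Between the lesions they ran from −0.82 to 0.16 for Il1a, −0.77 to 0.12 for Il1b, −0.069 to 0.23 for Ccl3, −0.47 to 0.075 for Ccl12 and −0.16 to 0.28 for Tnfrsf1a. Of 505 alternative log2 fold changes, 469 kept direction and side of the threshold, as did 388 of 405 ratios. For the ratios the side of the threshold was largely set by the smallest p that the permutation tests allow. Raw counts of at most 58 per library limit Tnf, and counts of at most 27 limit Il6.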

Other observations

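Some other genes of the chemokine clusters on chromosome 11, not all of them, are described here, and they differed among themselves. Ccl8, which lies 11.8 kb from Ccl12 and encodes another ligand of monocyte receptors, had a mean of 32.0 ± 25.8 normalized counts in controls (3.47 to 62.8, n = 5) and 161 ± 44.2 after SCL (123 to 223, n = 4). It rose after SCL in the fit with a mean minimum of 10 (log2 fold change 2.42, edgeR adjusted p = 0.0158), and after ECL it stood at 85.2 ± 45.7 (1.48, edgeR adjusted p = 0.116). Ccl7, 8.26 kb from Ccl2, was at 418 ± 222 in controls, 480.0 ± 368 after SCL and 548 ± 463 after ECL, with log2 fold changes of 0.19 and 0.39 (edgeR adjusted p = 0.823 and 0.607). Ccl11, between them, was at most 3.495 normalized counts in any library. Ccl6 and Ccl9, beside Ccl3, had log2 fold changes of 0.86 and 0.01 after SCL and of 0.36 and 0.07 after ECL, and none passed (edgeR adjusted p from 0.182 to 0.992). These genes were chosen for their position, after their values were seen.

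With the mean minimum of 10, the counts of the 4 pathway lists were as follows. After SCL, where 16.3% of all genes were called, 2 of 29 TNF signalling genes, 2 of 28 interleukin genes, 1 of 20 TGF-beta genes and 5 of 30 chemokine genes were higher, and 1 TGF-beta gene was lower. After ECL, where 22.7% were called, 2 of 30, 1 of 27, 2 of 20 and 2 of 28 were higher and 2, 1, 2 and 1 were lower. Besides Ccl8, the called genes that the minimum of 150 had left out were Tnfrsf1b, Ripk3, Myd88, Tgfb3 and Ccr2, named after their values were seen. Tnfrsf1b, which encodes TNF receptor 2, the receptor found mainly on microglia and endothelium, rose after SCL from 59.1 ± 10.4 to 166 ± 28.9 normalized counts (log2 fold change 1.57, edgeR adjusted p = 0.00429), and after ECL it stood at 95.6 ± 31.6 (0.77, edgeR adjusted p = 0.121). Ripk3, the kinase of necroptosis, rose after ECL from 1.72 ± 2.57 to 23.6 ± 6.89 normalized counts (3.70, edgeR adjusted p = 0.00752), and after SCL, where it was under the minimum, it stood at 18.6 ± 6.30. Myd88, the adaptor of interleukin-1 and Toll-like receptors, rose after SCL (1.32, edgeR adjusted p = 0.00694) and after ECL (1.498, edgeR adjusted p = 0.000940). Tgfb3 rose after ECL (1.24, edgeR adjusted p = 0.0278) and stood at 0.96 after SCL (edgeR adjusted p = 0.104). Ccr2, the receptor for Ccl2 and Ccl12 on monocytes, had a mean of 48.0 ± 32.1 in controls (4.08 to 83.5), 10.9 ± 7.52 after SCL and 7.21 ± 3.17 after ECL. It fell by 2.64 on the log2 scale after ECL (edgeR adjusted p = 0.0186) and stood at −2.07 after SCL (edgeR adjusted p = 0.0773). In the ECL fit, Ripk3 reached the minimum of 10 only through the ECL libraries and Ccr2 only through the controls. That minimum favoured genes high in a single group, so both calls are given as descriptions. The cause of these differences was not tested.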
